A study of Homo sapiens with 6 samples.

Results

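The binding sites of FXR1 were set against those of wild-type FMR1 isoform 1, using every site of both lists: 9017 sites of FXR1 and 121903 of isoform 1, together 130920 of the 464799 sites in the series. Sites were placed on hg19 and compared strand by strand, and a site counted as shared where it overlapped a site of the other list by at least 1 nt. A site that met none was counted as private.

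FMR1, FXR1 and FXR2 form the fragile X family of RNA-binding proteins, which contact RNA through KH domains and an RGG region. Loss of FMR1 causes fragile X syndrome, and FMR1 is best known for restraining the translation of the messenger RNAs it binds. FXR1 is known for its role in muscle and heart, where its loss is lethal in mice, and both proteins associate with ribosomes.

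The lists came from PAR-CLIP, in which 4-thiouridine in RNA is crosslinked to bound protein by ultraviolet light at 365 nm and the RNA bound by the purified protein is read by sequencing. The cells were FlpIn T-REx HEK293, an established human embryonic kidney line. Each line carried 1 transgene with a FLAG-HA tag, switched on with 1 µg/ml doxycycline for 16 h in the presence of 100 µM 4-thiouridine, and RNA was recovered through the FLAG tag. All libraries shared a light dose of 0.15 J per square cm and a digestion of the lysate with RNase T1, which cuts RNA after G, for 15 min at 22 °C. FXR1 and isoform 1 were both in the wild-type form, and the libraries of FXR2, isoform 7 and the I304N forms of both isoforms serve below only as further readouts of the same positions. The labels do not say whether a line was 1 clone, what level the transgene reached or whether the cells' own FMR1, FXR1 and FXR2 were still present. Each protein had 1 library, so no value has a replicate error, no test between the proteins was possible, and intervals are 95% intervals that cover counting error only. The lists hold no read numbers, so the depth behind a site is unknown, and a longer list and more binding cannot be told apart.

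FXR1 sites were fewer and narrower. They had a median width of 20 nt (quartiles 18 and 22) and none was wider than 67 nt, whereas isoform 1 sites had a median of 24 nt (quartiles 19 and 31) and reached 1824 nt. Sites over 30 nt made up 1.86% of the FXR1 list and 26.9% of the isoform 1 list. FXR1 had 2 sites of 60 nt or more, against 7746 (6.35%) in isoform 1. In all, FXR1 sites covered 181 kb and isoform 1 sites 3599 kb. Both lists number their sites in groups whose meaning is not given: 15 of 8998 FXR1 groups (0.167%) held several sites, against 18357 of 92502 isoform 1 groups (19.8%). The share of sites that the authors marked as lying in a repeat was 6.11% (5.62 to 6.62) in FXR1 and 5.35% (5.23 to 5.48) in isoform 1.

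Most FXR1 sites lay on RNA that isoform 1 also touched, while few isoform 1 sites had an FXR1 partner. Of the FXR1 sites, 6311 were shared, or 69.99% (69.0 to 70.9), and 2706 were private. Of the isoform 1 sites, 5978 were shared, or 4.90% (4.78 to 5.03), and 115925 were private. The lists differ in length, and each share is of its own list. Ignoring strand added 3 FXR1 sites to those shared. Counting FXR1 sites that lay within 50 nt of an isoform 1 site as well brought the number to 7147 (79.3%), and a limit of 10000 nt brought it to 7952 (88.2%).

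Where an FXR1 site overlapped isoform 1, it usually lay within the bounds of the isoform 1 site. Among 6340 overlapping pairs, the FXR1 site lay wholly within the isoform 1 site in 5052 (79.7%). The isoform 1 partner had a median width of 35 nt, and in 1860 pairs (29.3%) it was 60 nt or wider. Where the isoform 1 partner was no wider than 30 nt, the pair began at the same 5′ nucleotide in 1473 of 2676 cases (55.0%, 53.1 to 56.9) and ended at the same 3′ nucleotide in 921 (34.4%, 32.6 to 36.3). Where the partner was wider than 30 nt, the shares were 17.1% at the 5′ end and 7.29% at the 3′ end of 3664 pairs. Over all pairs, 534 (8.42%) matched at both ends, and these are counted among the 5052. Single isoform 1 sites held up to 22 FXR1 sites, and 260 held at least 2.

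The shared part of the FXR1 list depended on how wide the isoform 1 sites were allowed to be. When sites over 30 nt were left out of both lists, it was 29.9%. When both sites had to overlap by at least 50% of their length, it was 37.6%. After every FXR1 site was moved by a fixed distance, the share that met an isoform 1 site, averaged over both directions, was 46.7% at 30 nt, 40.3% at 100 nt, 25.6% at 1000 nt and 2.42% at 10000 nt. For isoform 1 sites up to 30 nt it was 29.6% without a shift, 13.1% at 30 nt, 14.4% at 100 nt and 9.54% at 1000 nt. FXR2, whose sites also had a median width of 20 nt, met 74.4% of unshifted FXR1 sites, 12.2% at 30 nt and 6.69% at 1000 nt.

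**Figure D1:**
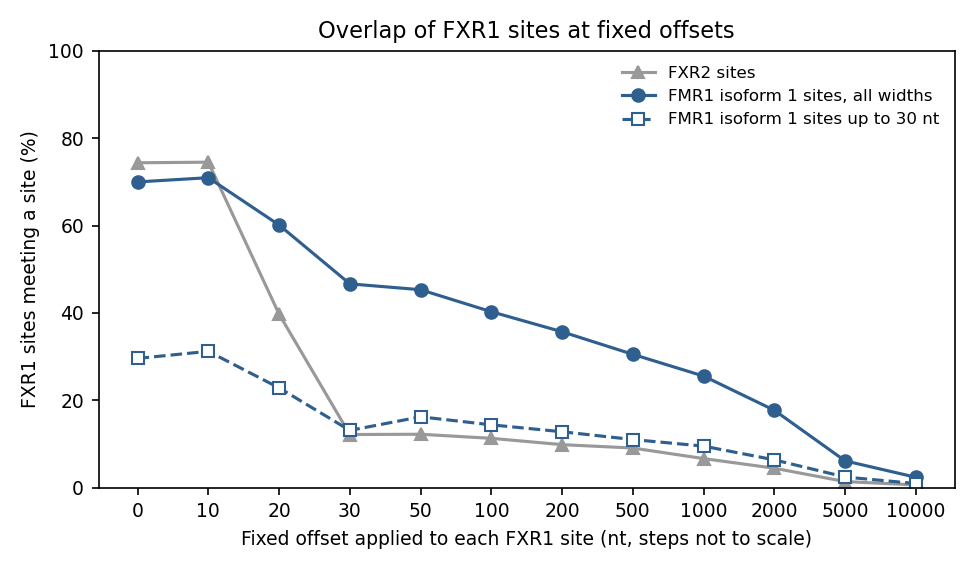
Share of the 9017 FXR1 sites (vertical axis, percent) that met a site of another list after every FXR1 site was moved by a fixed distance (horizontal axis, nt, steps not to scale), averaged over both directions. The FXR2 line dropped to 12.2% at 30 nt, whereas the line for all isoform 1 sites was still at 46.7% and that for isoform 1 sites up to 30 nt at 13.1%.

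Shared FXR1 sites were much more often found in the other fragile X libraries than private ones. FXR2 had a site at 87.2% (86.4 to 88.0) of shared FXR1 sites and at 44.4% of private ones, a ratio of 1.96 (1.84 to 2.09). Isoform 1 with I304N, a change in a KH domain, had a site at 36.0% of shared and 7.28% of private FXR1 sites, a ratio of 4.95 (4.27 to 5.75). Isoform 7 had a site at 25.8% of shared and 10.6% of private ones (ratio 2.43, 2.14 to 2.77), and isoform 7 with I304N at 24.4% and 3.84% (ratio 6.35, 5.21 to 7.83). All 4 of these lists held a site at 15.3% of shared and 1.15% of private FXR1 sites. Another FXR1 site lay within 1000 nt of 64.7% of shared and 27.5% of private FXR1 sites. The mark for repeats was less frequent among shared FXR1 sites, at 4.91% against 8.91% of private ones (ratio 0.552, 0.465 to 0.655). That direction came from the private sites farthest from isoform 1, which held 196 of the 241 marked private sites. Sites of 1 list are not replicates, and these intervals treat them as independent draws.

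The private FXR1 sites were of unlike kinds once they were divided by their distance to isoform 1. Of the 2706, 836 lay within 50 nt of an isoform 1 site, 605 at 51 to 1000 nt, 200 at over 1000 and up to 10000 nt, and 1065 (11.8% of all FXR1 sites) farther than 10000 nt or on a chromosome strand without one. FXR2 had a site at 67.3% (64.0 to 70.5) of those within 50 nt and at 55.5% (51.5 to 59.5) of those at 51 to 1000 nt. It had a site at 19.2% of the most distant class. The most distant FXR1 sites were also narrower, with a median width of 17 nt against 20 nt in the shared class. They carried the repeat mark in 18.4%, against 1.67% (0.918 to 2.79) of private sites within 50 nt and 2.81% (1.65 to 4.46) of those at 51 to 1000 nt, both below the 4.91% of shared sites. They also stood alone, since 0.188% of them had another FXR1 site within 1000 nt. In 64.0% of them none of the other 4 lists had a site. Isoform 7 had a site at 17.9% of them, against 3.85% for I304N isoform 1 and 2.07% for I304N isoform 7.

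**Figure D2:**
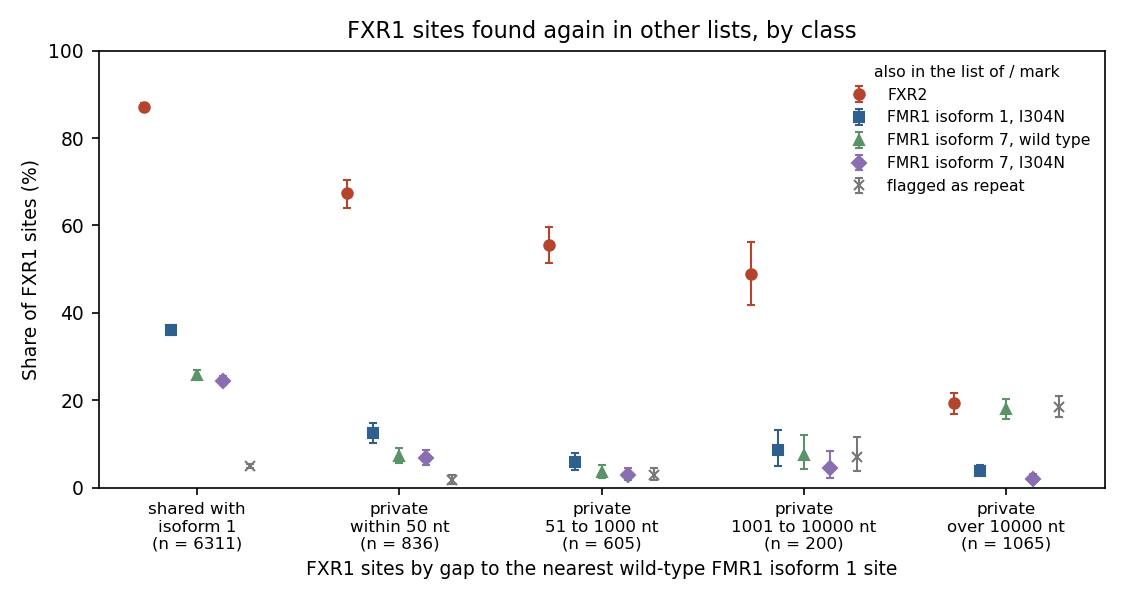
Share of FXR1 sites (vertical axis, percent, with exact Clopper-Pearson 95% intervals) that had a site in 4 other lists or carried the repeat mark, for shared sites and for private sites by distance to the nearest isoform 1 site (horizontal axis). The FXR2 share was 87.2% in the shared class and 19.2% in the most distant class, where isoform 7 stood at 17.9% and the repeat mark at 18.4%.

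Seen from isoform 1, FXR1 sites gathered on wide sites and in crowded stretches. An FXR1 site lay on 2.08% (1.94 to 2.22) of isoform 1 sites of 10 to 20 nt, on 4.18% of those of 26 to 30 nt, on 8.72% of those of 41 to 60 nt and on 32.8% (30.7 to 34.9) of the 2026 sites over 100 nt. A wider site offers more nucleotides to overlap, and the share of the same sites that met FXR2 ran from 8.02% in the narrowest to 68.4% in the widest class. The share also differed with crowding among isoform 1 sites up to 30 nt. With no other isoform 1 site within 1000 nt, 2.31% (2.07 to 2.58) had an FXR1 site, against 4.18% (3.91 to 4.46) with 11 to 20 such neighbours and 5.84% (5.31 to 6.40) with more than 20. Below 11 neighbours the shares lay between 1.99% and 2.54%.

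The isoform 1 sites that FXR1 shared were mostly those that FXR2 shared. FXR1 had a site at 5228 of 20360 isoform 1 sites with FXR2 (25.7%, 25.1 to 26.3) and at 750 of 101543 without FXR2 (0.739%, 0.687 to 0.793). Recurrence among the FMR1 lists did not order the sites in the same way for both paralogs. Among isoform 1 sites up to 30 nt, FXR1 had a site at 3.85% (3.69 to 4.03) of those in no other FMR1 list, at 2.13% of those in 1, at 1.58% of those in 2 and at 1.93% (1.68 to 2.20) of those in all 3. FXR2 had a site at 10.5% of the isoform 1 sites in no other FMR1 list and at 19.8% (19.1 to 20.5) of those in all 3. Over sites of every width the FXR1 shares were 5.07%, 3.89%, 3.71% and 6.34%, so that the order at the upper end depended on width.

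To look at stretches of RNA, sites of 1 list with gaps of at most 1000 nt on the same strand were joined into runs. FXR1 formed 5400 runs, of which 77.2% were single sites, and 72 runs of 10 or more sites held 11.5% of the list. Isoform 1 formed 29920 runs, of which 52.1% were single sites, and 2452 runs of 10 or more held 54.7% of the list. At least 1 FXR1 site lay in 3162 isoform 1 runs, 10.6% of all. That share was 2.84% (2.59 to 3.12) of single-site runs, 8.23% of runs with 2 to 4 sites, 21.1% with 5 to 9, 40.7% with 10 to 19, 68.1% with 20 to 49, and 94.3% (91.0 to 96.6) of the 296 runs with 50 or more. The longer a run, the more room it has for any site, so the number of FXR1 sites per 100 isoform 1 sites is given too: it was 2.87 in single-site runs, 5.62 in runs of 10 to 19 and 10.5 in runs of 50 or more. For FXR2 the same numbers were 11.5, 25.3 and 28.3. Sites in the gaps between isoform 1 sites were counted too, and a single-site run has no gaps. These numbers therefore do not remove the effect of room.

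**Figure D3:**
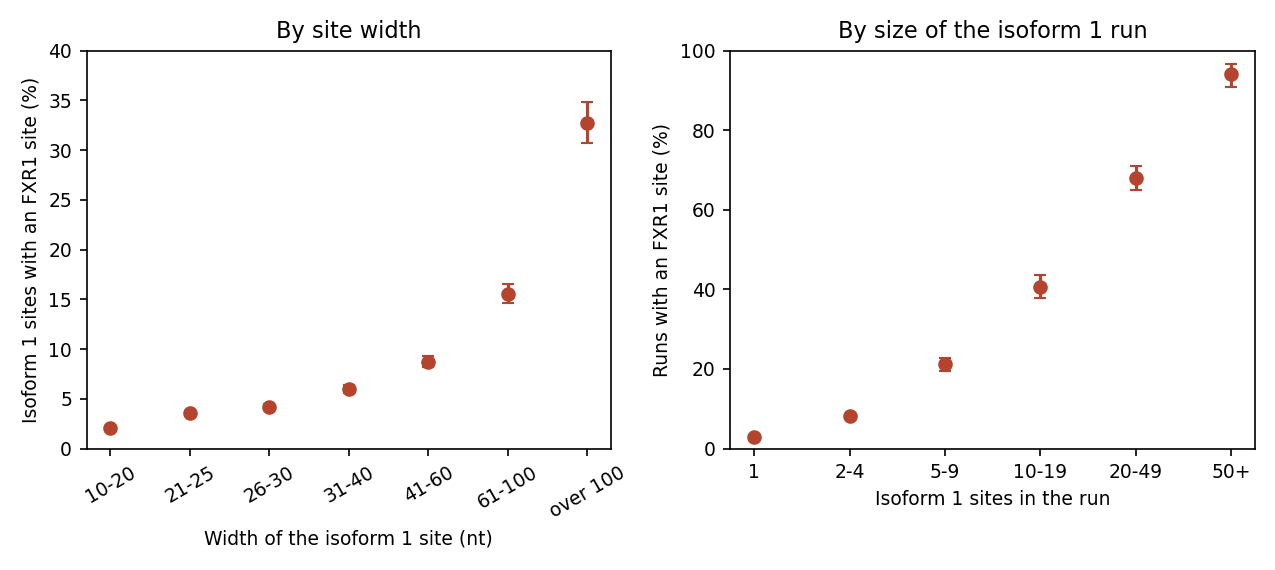
Left, share of isoform 1 sites with an FXR1 site (percent) by width of the isoform 1 site (nt), and right, share of isoform 1 runs with an FXR1 site (percent) by number of isoform 1 sites in the run. Bars are exact Clopper-Pearson 95% intervals, and the shares reached 32.8% of sites over 100 nt and 94.3% of runs of 50 or more sites.

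FXR1 sites that stood in clusters were more often shared than lone ones, most of all in runs of 10 or more. Of lone FXR1 sites, 53.0% (51.5 to 54.5) overlapped isoform 1, against 82.4% (81.1 to 83.6) in FXR1 runs of 2 to 9 sites and 92.8% (91.0 to 94.3) in runs of 10 or more. In the 72 FXR1 runs of 10 or more sites, FXR1 covered a median of 8.15% and isoform 1 a median of 63.0% of the nucleotides, and isoform 1 covered more than FXR1 in 72 of 72. Isoform 1 nevertheless had fewer sites than FXR1 in 4 of them.

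Those 4 runs were places where isoform 1 had few and very wide sites. The run with the most FXR1 sites lay on chromosome 12 from 1310016 to 1313564 (hg19, plus strand), with 42 FXR1 sites and 9 isoform 1 sites. FXR1 covered 26.7% of it and isoform 1 83.5%, and 41 of the 42 FXR1 sites were shared. The widest isoform 1 site touching it spanned 1425 nt. FXR2 had 46 sites there and isoform 7 had 10.

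A stretch of chromosome X, hg19 24002317 to 24006965 on the minus strand, had 28 FXR1 sites that covered 12.4% of it and 9 isoform 1 sites that covered 96.5%. Isoform 7 had 46 sites in that stretch, I304N isoform 1 had 57 and FXR2 had 53, so the small number of isoform 1 sites was not shared by the other FMR1 lists. FXR1 had 28 sites (11.6% covered) on chromosome 5 between 135513178 and 135518420 (plus strand), where isoform 1 had 18 (92.2% covered) and isoform 7 had 50. Between 34921961 and 34927074 of chromosome 21 (plus strand), FXR1 had 31 sites (11.2% covered) and isoform 1 had 23 (91.9% covered), with 51 in isoform 7. All FXR1 sites of the last 3 stretches were shared.

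The hg19 annotation was not at hand, so genes could not be assigned by position. As a stand-in, the 4 isoform 1 runs with the most sites were compared by length with exons of the same chromosome and strand in GENCODE 29, an annotation on another build. A name was taken where the run filled at least 98% of an exon and at most 4 genes had an exon as long as the run, which gave LCOR and AHNAK. These names are candidates from length, chosen after the values were seen, and no coordinate was converted.

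The candidate AHNAK run was dense in isoform 1 and empty in FXR1. AHNAK encodes a giant scaffold protein, and 95.4% of the matched exon is coding sequence. The run, on chromosome 11 from 62283428 to 62301374 (minus strand), held 0 FXR1 sites and 179 isoform 1 sites. Scaled to the length of each list, the exact upper limit of the FXR1 over isoform 1 ratio was 0.281. FXR2 had 3 sites there, isoform 7 had 76, I304N isoform 1 had 135 and I304N isoform 7 had 80.

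The candidate LCOR run held sites of both proteins. LCOR encodes a corepressor of ligand-bound nuclear receptors, and 28.6% of the matched exon is coding sequence. The run, on chromosome 10 from 98740622 to 98755613 (plus strand), held 19 FXR1 sites, of which 17 were shared, and 196 isoform 1 sites. The ratio of shares of sites, FXR1 over isoform 1, was 1.31 (0.772 to 2.10), an interval that holds 1. FXR2 had 66 sites there and isoform 7 had 101.

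The largest isoform 1 run was longer than any exon on its chromosome and strand. It lay on chromosome 10 from 62553643 to 62572931 (plus strand), with 47 FXR1 sites, 41 of them shared, and 202 isoform 1 sites, a ratio of 3.15 (2.24 to 4.34). A further unmatched run, on chromosome 19 from 57802076 to 57819800 (plus strand), held 28 FXR1 and 186 isoform 1 sites, a ratio of 2.04 (1.32 to 3.04).

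**Figure D4:**
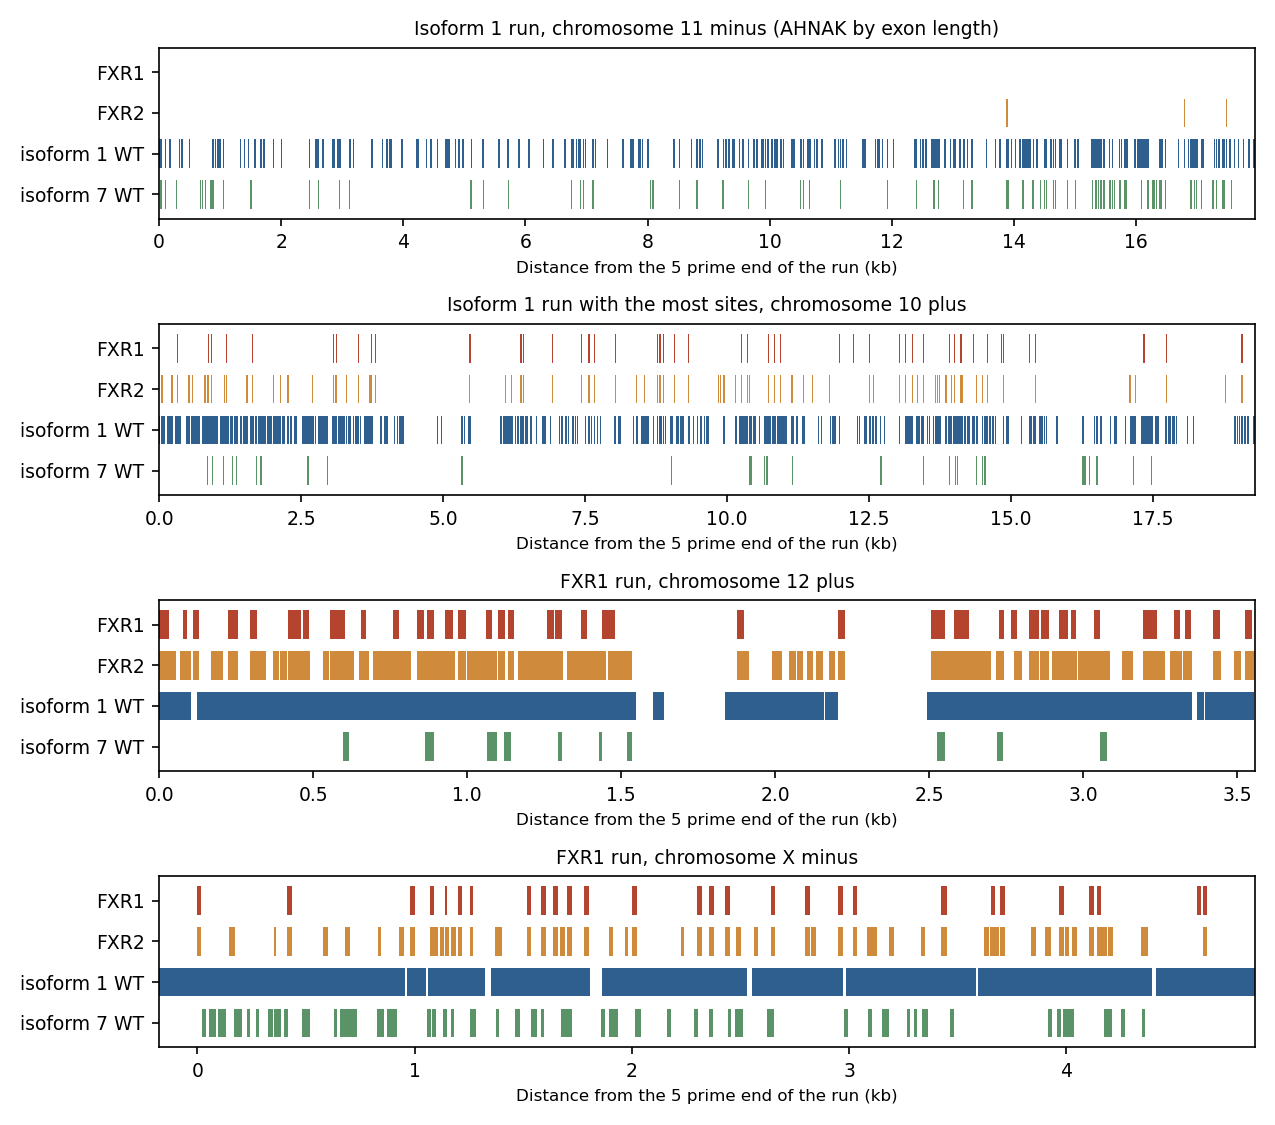
Sites of FXR1, FXR2, wild-type isoform 1 and wild-type isoform 7 (1 line of marks each, to scale) along 4 stretches, by distance from the 5′ end of the run (horizontal axis, kb). The AHNAK candidate held 0 FXR1 and 179 isoform 1 sites and the run on chromosome 10 held 47 and 202, and in the FXR1 runs on chromosomes 12 and X isoform 1 covered 83.5% and 96.5% with 9 sites each.

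Besides AHNAK, 16 more isoform 1 runs of 50 or more sites had no FXR1 site, 17 of 296 in all (5.74%). The median over the 296 runs was 8.47 FXR1 sites per 100 isoform 1 sites (quartiles 3.83 and 15.0). FXR2 had at least 1 site in 16 of the 17, with up to 23, as unscaled counts from a list of 34521 sites. How FXR2 stood in windows low in FXR1 is given below. The level of the other FMR1 lists differed from run to run. A run on chromosome 17 between 80036628 and 80049518 (minus strand) had 0 FXR1 and 75 isoform 1 sites, while isoform 7 had 100 and I304N isoform 1 had 78. Another on chromosome 12 between 1325595 and 1332502 (minus strand) had 0 FXR1 and 69 isoform 1 sites, while isoform 7 had 13, I304N isoform 1 had 10 and I304N isoform 7 had 0. At the other end of the 296 runs, FXR1 reached 42 sites to 69 of isoform 1 between 1309739 and 1320723 of chromosome 12 (plus strand), the stretch that includes its densest run. A run of chromosome 5 between 71500909 and 71505330 (plus strand) had 24 FXR1 to 50 isoform 1 sites, with 23 of the 24 shared.

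Local density was then compared over the genome in strand-specific windows of 50 kb, scaled to 100000 sites per list with a pseudocount of 1. Of 6651 windows with a mean of at least 2 scaled sites, FXR1 was at least 2-fold higher in 2093 (31.5%) and at least 2-fold lower in 3095 (46.5%). The balance turned over under stricter filters. With a mean of at least 4 scaled sites, 2093 were higher and 1705 lower among 5261 windows. With at least 20, a filter added later, 332 were higher and 209 lower among 1237. A window with 1 FXR1 site passes the limit of 4 by that site alone. That limit could therefore remove only windows without an FXR1 site, so the scaling set which side shrank. These counts say little of single loci, because 1 FXR1 site is worth 11.1 scaled sites and 1 isoform 1 site 0.82. A single FXR1 site made up 1583 of the 2093 higher windows, and 2845 of the 3095 lower windows had none. The median log2 ratio was -0.57. Of 12506 windows with a site in either list, 2824 had both, 982 had FXR1 only and 8700 had isoform 1 only. No window without isoform 1 held more than 2 FXR1 sites.

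With counting error taken into account, far fewer windows stood apart. The exact interval of the ratio lay above 1 in 218 windows (3.28%) and below 1 in 45 (0.677%), of which 36 had no FXR1 site. Because the lists differ in length, these calls needed unlike evidence. A window with 2 FXR1 and 0 isoform 1 sites already had a lower limit of 2.54. A window with 0 FXR1 and 47 isoform 1 sites still had an upper limit of 1.10. The counts of 218 and 45 therefore cannot say which direction was more frequent. When covered nucleotides replaced sites, 133 of the 218 were also at least 2-fold higher, and 7 were at or below 1. Neither number includes 12 of the 218 that had 2 FXR1 and 0 isoform 1 sites, and so no such ratio. The intervals are not adjusted for the number of windows, and windows named for an extreme ratio were picked by the counts that gave it.

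In some windows with many FXR1 sites, the number of sites and the covered nucleotides gave very different ratios. In the window from 24000001 to 24050000 of chromosome X (minus strand), 28 FXR1 stood against 17 isoform 1 sites, a ratio of 22.3 (11.8 to 43.4) by sites and of 1.94 by covered nucleotides. In that from 135500001 to 135550000 of chromosome 5 (plus strand), 29 FXR1 and 24 isoform 1 sites gave ratios of 16.3 (9.18 to 29.3) and 2.31. In that from 1300001 to 1350000 of chromosome 12 (plus strand), 42 FXR1 and 77 isoform 1 sites gave ratios of 7.37 (4.94 to 10.9) and 3.52. In all 3, FXR1 was above isoform 1 by both measures, with the smaller ratio by nucleotides.

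Other windows were rich in FXR1 by both measures. Between 21950001 and 22000000 of chromosome 19 (minus strand), 7 FXR1 sites, all private, stood against 1 of isoform 1, a ratio of 94.6 (12.2 to 4265) by sites and 141 by covered nucleotides. FXR2 had 11 sites there, and isoform 7 had 1. Between 180650001 and 180700000 of chromosome 3 (plus strand), 13 FXR1 sites, of which 6 were private, stood against 14 of isoform 1. The ratio was 12.6 (5.43 to 28.8) by sites and 20.9 by nucleotides, and FXR2 had 7 sites. The window of chromosome 2 from 201400001 to 201450000 (plus strand) held 10 FXR1 sites, 8 of them private, and 27 of isoform 1, with 9 in FXR2 and 1 in isoform 7. In the window of chromosome 1 from 91850001 to 91900000 (minus strand), 7 FXR1 sites, all shared, stood against 2 of isoform 1. Here the ratio was 47.3 (9.01 to 467) by sites and smaller, 16.9, by covered nucleotides, and the widest isoform 1 site spanned 252 nt. Next by log2 ratio came 12 tied windows with 2 FXR1 sites and 0 of isoform 1 each, which is too few for a fold.

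**Figure D5:**
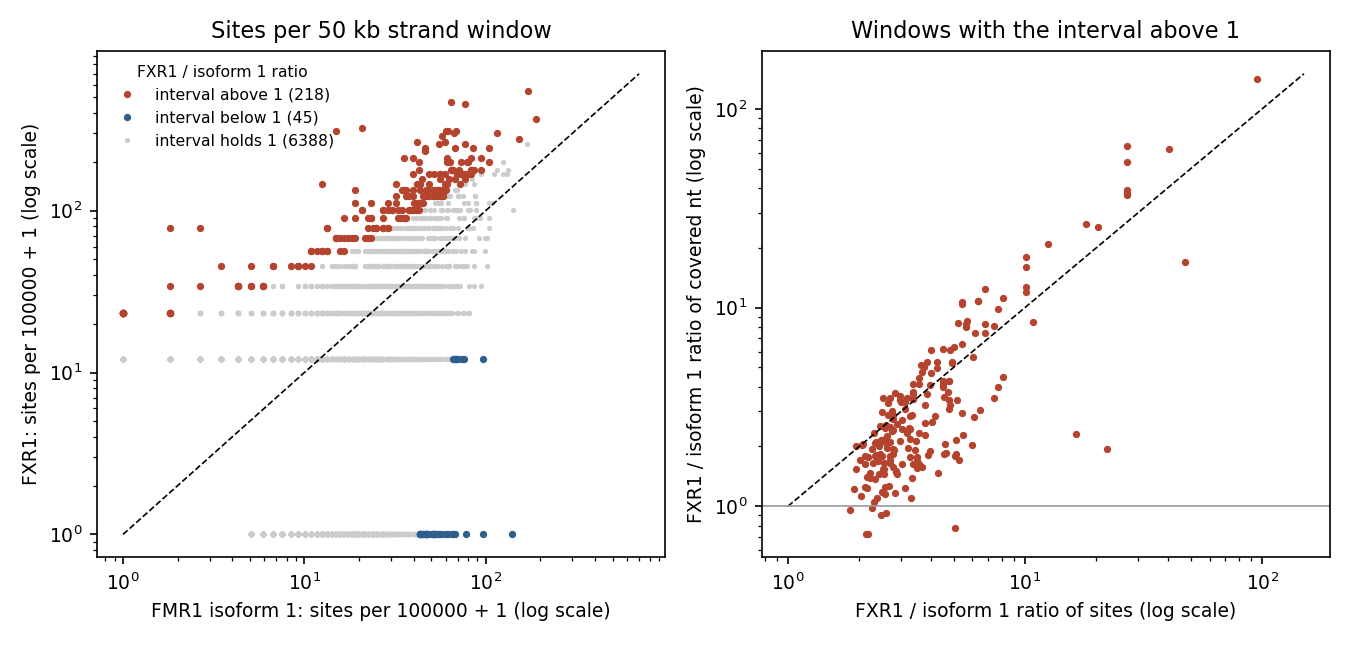
Left, sites per 100000 plus 1 in 6651 strand windows of 50 kb, FXR1 (vertical, log scale) against isoform 1 (horizontal, log scale), coloured by whether the exact 95% interval of the ratio lay above 1 (218), below 1 (45) or held 1. Right, for the windows with the interval above 1, the FXR1 over isoform 1 ratio of covered nucleotides (vertical, log scale) against that of sites (horizontal, log scale). In 7 windows the ratio by covered nucleotides was at or below 1, and the dashed line marks equal ratios. Windows without an isoform 1 site have no ratio of covered nucleotides and are not shown on the right.

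The 10 windows with the lowest ratio had no FXR1 site and between 68 and 168 isoform 1 sites. After the window of the AHNAK candidate, the lowest was on chromosome 14 from 102450001 to 102500000 (plus strand), with 0 FXR1 and 116 isoform 1 sites. The exact upper limit of the ratio was 0.437, and FXR2 had 18 sites. The window of chromosome 9 from 134350001 to 134400000 (plus strand) held 0 FXR1 and 94 isoform 1 sites, with 25 in FXR2 and 111 in isoform 7. That of chromosome X from 153200001 to 153250000 (minus strand) held 0 FXR1 and 74 isoform 1 sites, while FXR2 had 41, the most among these 10. FXR2 had between 3 and 41 sites in these 10 windows, in a list of 34521 sites. These counts are unscaled, and the isoform 1 list has 121903 sites. Scaled to list length, FXR2 stood above isoform 1 in some of the 10, among them that of chromosome X, and below it in others. Of the 45 windows with the FXR1 interval below 1, the scaled FXR2 over isoform 1 ratio was also below 1 in 35. Isoform 1 stands in both ratios, and these windows were picked by the FXR1 ratio. The share of all windows with an FXR2 ratio below 1 is not given, so the 35 cannot be read as a result on FXR2.

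The lists were also spread a little differently over the chromosomes. Of 23 chromosomes compared, the FXR1 share was higher in 6, lower in 7, and the interval held 1 in 10. Chromosome X held 4.39% of FXR1 and 3.35% of isoform 1 sites, a ratio of 1.31 (1.18 to 1.45). Chromosome 19, home of many zinc finger gene clusters, held 5.89% of FXR1 and 4.91% of isoform 1 sites, a ratio of 1.20 (1.10 to 1.31). Chromosome 22 held 102 FXR1 and 2438 isoform 1 sites, a ratio of 0.566 (0.459 to 0.690). Chromosomes 9 and 20 had ratios of 0.698 (0.604 to 0.802) and 0.716 (0.606 to 0.840). The part of FXR1 sites that was shared ran from 59.3% (54.5 to 63.9) on chromosome 3 to 80.2% (73.3 to 86.1) on chromosome 21. The mitochondrial genome held 18 FXR1 and 146 isoform 1 sites, a ratio of 1.67 (0.961 to 2.73).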

How the data were processed

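PAR-CLIP site lists of 6 libraries, 1 per protein form, were used as deposited. Bowtie 0.12.7 and the genome build hg19 are named per the submitters' processing notes. How sites were called, with which thresholds, on how many reads and with what pooling is not given in the sources used here. The deposited score is a flag: per the file headers it is 1000 outside repeats and 0 in a repeat, and it was used only to mark sites.

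Overlaps, gaps, runs and windows were computed with Python 3.11.15, pandas 2.3.3, NumPy 2.4.6 and SciPy 1.17.1, and the scripts were checked on simulated data. No sites of 1 list overlapped each other on a strand. Shares carry exact Clopper-Pearson intervals and ratios exact conditional ones, at 95%, for counting error only. A count of 0 allows 0.0333% of the FXR1 list (3 counts) and 0.00246% of the isoform 1 list. No p-value was computed.

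By the rule, windows are named for the most FXR1 sites, the most isoform 1 sites, the 10 highest and 10 lowest log2 ratios, and the most shared and most private FXR1 sites. The text gives a selection of them. Runs, and windows ranked by the limits of their intervals, were added after seeing the data. The comparison, the lists and the rule were chosen with earlier results of these data known. GENCODE 29 is on GRCh38 and served only for exon lengths. Planned results per gene, per transcript part and for sequence motifs were not analysed here, and results for some runs are not reported here.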

Additional observations from a re-analysis of the deposited data

How the results depend on the processing

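Of 50 alternatives computed, 35 stayed within the tolerance set for their result and 15 did not. The tolerance was the 95% interval of the original value for shares and ratios, 1.5 times the original for counts of windows and 0.1 for the median log2 ratio. No ratio changed its side of 1 and no median its sign. The share of FXR1 sites overlapping isoform 1, 69.99%, was 68.7% with an overlap of 50% of the shorter site, 37.6% with 50% of both sites, 68.0% without sites marked as repeats, 29.9% without sites over 30 nt and 49.4% without sites of 60 nt or more. The share of isoform 1 sites overlapping FXR1, 4.90%, was 2.78% with 50% of both sites, 4.76% without repeat sites, 2.97% without sites over 30 nt and 3.90% without sites of 60 nt or more. Windows at least 2-fold lower in FXR1, 3095, numbered 5555 with no filter on low windows and 1705, against 2093 higher, with a mean of at least 4 scaled sites. With a mean of at least 20, 332 of 1237 windows were higher and 209 lower. Both stricter filters turned the balance over from that of 2093 higher and 3095 lower windows. Stricter filters test fewer windows by construction, and no filter tests more. The limit of 4 scaled sites could remove only windows without an FXR1 site. With isoform 7 in place of isoform 1 the median log2 ratio was -0.31, against -0.57. Scaling by the median of ratios put that median at -1.21, with 1627 windows higher and 3472 lower. The median under that scaling, the limits at 60 nt and at 20 scaled sites, and the count by covered nucleotides (2117 higher, 3088 lower), were chosen after seeing the data.

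No paired analysis was possible because each protein had 1 library, and leaving out a library leaves nothing to compare. FXR1 is not shown to be absent from any stretch: with 9017 sites in its list, a run or window with 0 FXR1 sites is one where none was detected, and site numbers mix depth, site calling and binding.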

Other observations

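Isoform 1 sites that the authors marked as lying in a repeat met FXR1 more often than the others: 479 of 6526 had an FXR1 site (7.34%, with a lower limit of 6.72%), against 5499 of 115377 sites outside repeats (4.77%, with an upper limit of 4.89%). FXR2 had a site at 16.6% of the isoform 1 sites in repeats and at 16.7% of those outside. These shares pool sites of every width, and the repeat mark was not separated from width or crowding. In the FXR1 list the direction was the other way, with the mark on 310 of 6311 shared sites (4.91%) and on 8.91% of private ones. The mark is given for each site of each list, so the counts of 479 and 310 need not match.

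Some further windows, not all of them dense in isoform 1, held from 1 to 19 FXR1 sites. The window of chromosome 11 from 118350001 to 118400000 (plus strand) held 1 FXR1 and 117 isoform 1 sites, and the exact interval of the ratio reached up to 0.657. The window of chromosome 12 from 49400001 to 49450000 (minus strand) held 9 FXR1 and 172 isoform 1 sites, a ratio of 0.707 (0.318 to 1.37) that counting error does not separate from 1. The window of chromosome 12 from 46750001 to 46800000 (minus strand) held 19 FXR1 sites, all shared, and 42 isoform 1 sites, with a lower limit of the ratio of 3.36. The window of chromosome 19 from 23500001 to 23550000 (minus strand) held 12 FXR1 sites, 11 of them shared, and 22 isoform 1 sites, with a lower limit of 3.33 by sites and a ratio of 8.08 by covered nucleotides. The windows of chromosome 11, of chromosome 12 from 46750001 and of chromosome 19 were ranked by the limits of their intervals, a choice made after their values were seen.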
